A study of Mus musculus with 15 samples.

Results

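The genes described here build ribosomes without being part of the finished ribosome. They are 36 genes that were picked as a list for their function: subunits of RNA polymerase I, core proteins of the small nucleolar ribonucleoproteins (snoRNPs), proteins that organise the nucleolus, and assembly factors of the small and large ribosomal subunits. Each gene was read from the probe set that the array annotation assigns to its symbol alone, and, for a gene with several such probe sets, from the one whose mean across the 15 arrays was highest. By this rule 35 of the 36 could be measured, among 18193 genes in all. The other, Mrto4, had only a probe set shared with its pseudogenes and is not described. All 35 genes lay above the median intensity of all probe sets on each of the 15 arrays, so a filter on dim genes would have removed none of them.

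A ribosome begins in the nucleolus, where RNA polymerase I copies the repeated ribosomal RNA genes into a long precursor. The snoRNPs then use guide RNAs to place chemical marks on that precursor: box C/D particles methylate ribose, with fibrillarin (Fbl) as the enzyme, and box H/ACA particles turn uridine into pseudouridine, with dyskerin (Dkc1) as the enzyme. Assembly factors cleave and fold the precursor and join it with ribosomal proteins until the small and large subunits leave for the cytoplasm. The pathway is costly, is driven by growth signals, and is a well-known target of the transcription factor Myc, which binds the E-box sequence CACGTG together with its partner Max.

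The cells came from wild-type C57Bl/6 mice at steady state, with no transgene or deletion named, and no age was found for the mice. Bone marrow progenitors were sorted in 4 groups of 2 arrays each, all without lineage markers except that the GMP gate does not name them: common myeloid progenitors (CMP; CD117 high, CD135+, CD16/32-, CD11c-), granulocyte-macrophage progenitors (GMP; CD117 high, CD16/32+, CD135-, CD11c-), common dendritic cell progenitors (CDP; CD117 intermediate, CD135+, CD16/32-, CD11c-) and pre-cDC, the precursors of classical dendritic cells ( CD117 low, CD135+, CD11c+, CD16/32-). Whole bone marrow grown for 7 days gave 3 single arrays: adherent cells grown with M-CSF at 20 ng/ml, adherent cells grown with GM-CSF at 20 ng/ml, and non-adherent CD11c+ cells of GM-CSF cultures. Bone marrow monocytes, enriched by removing other cells, gave single arrays at 0, 24 and 48 h with GM-CSF at 20 ng/ml. A last array, of pre-cDC titled Spl, is given as values only. Nothing in the labels says that the 2 arrays of a group came from separate animals or sorts, so p-values measure the spread between these arrays, which may be technical.

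The deposited values are linear intensities, and they stand on 4 scales: array medians ran from 15.95 to 17.44 for progenitors, from 24.09 to 25.66 for cultures and from 77.73 to 80.53 for monocytes, and the Spl array had 74.17. Differences were therefore formed within progenitors, within cultures and within monocytes, as log2(intensity + 32), a scale that understates changes of dim genes, and across scales only ratios of the Spl array are given, as values. In the progenitors, a gene was called when the limma test, with Benjamini-Hochberg adjustment over all 18193 genes, gave an adjusted p under 0.05. In comparisons of single arrays there is no test, and the counts are of genes that differed 2-fold or more, with the higher of their values above the median of its array. The array data are of bulk RNA, in which fewer cells of a type and less RNA per cell cannot be told apart. The 2 arrays of a progenitor group correlated across genes at 0.995 to 0.997, with 2 to 9 genes 2-fold apart. The largest difference of a ribosome biogenesis gene between the 2 arrays of a group was 0.57 on the log2 scale (Gnl3 in CDP). The genes of the sort markers followed the gates: Kit (CD117) read 1229 and 1209.6 in CMP, 905 and 1085 in GMP, 368 and 335 in CDP, and 36.3 and 36.8 in pre-cDC, Itgax (CD11c) read 1537 and 1563 in pre-cDC and at most 153 in the other 3 groups, and Fcgr3 (CD16) read 1775 and 1729.9 in GMP and at most 36 elsewhere among the progenitors.

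Because Myc is a known regulator of the pathway, the promoters of the genes were searched for the E-box. RefSeq promoter windows (250 bases before to 50 bases after the start of the gene, GRCm38.p6) were found for 30 of the 35 genes. The letters CACGTG, which read the same on both strands, occurred in the windows of 5 of them, Imp4, Nop2, Pes1, Tsr1 and Wdr43, against 8.09% of all 27025 genes with a window and 10.2% of the 14452 such genes on the array. The windows of Pes1 and Tsr1 are shown because both genes are described with their values in progenitors, monocytes and cultures, with the E-box in capitals and the rest in lower case. In Pes1 (chr11:3963725-3964024, plus strand) the E-box begins at base 3 counted from the start of the gene, and in Tsr1 (chr11:74897830-74898129, plus strand) at base 25. The letters TATAAA on either strand occurred in the windows of 3 genes, Dkc1, Pes1 and Ppan, against 15.7% of all genes with a window and 11.5% of those on the array. The median GC content was 56.3% for the windows of the ribosome biogenesis genes and 52.7% for all windows. A match is a description of these letters and shows neither binding nor its absence.
Pes1: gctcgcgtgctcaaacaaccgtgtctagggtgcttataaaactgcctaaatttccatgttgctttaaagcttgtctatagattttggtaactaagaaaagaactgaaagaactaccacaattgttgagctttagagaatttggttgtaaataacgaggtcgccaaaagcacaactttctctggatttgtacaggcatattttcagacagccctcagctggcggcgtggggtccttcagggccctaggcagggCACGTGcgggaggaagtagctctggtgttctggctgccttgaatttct
Tsr1: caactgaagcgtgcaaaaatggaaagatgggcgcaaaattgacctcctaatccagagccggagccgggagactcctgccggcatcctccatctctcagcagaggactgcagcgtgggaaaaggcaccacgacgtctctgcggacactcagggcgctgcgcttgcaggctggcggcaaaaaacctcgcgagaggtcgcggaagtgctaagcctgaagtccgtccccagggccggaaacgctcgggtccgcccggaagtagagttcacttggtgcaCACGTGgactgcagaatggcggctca

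From CMP and GMP through CDP to pre-cDC the ribosome biogenesis genes fell almost as a block. In CDP against CMP, 22 of the 35 fell and 0 rose, with a median log2 difference of -0.45, while 6.75% of all genes fell and 7.68% rose. In pre-cDC against CDP, 32 of 35 fell and 0 rose, with a median of -0.90, while 18.8% of all genes fell and 14.4% rose. In pre-cDC against GMP all 35 fell, with a median of -1.43 and 29 genes at least 2-fold lower, while 23.1% of all genes fell and 21.0% rose. In pre-cDC against CMP 34 fell, with a median of -1.38, while 23.0% of all genes fell and 19.1% rose. The exception there, by the probe set used, is Fbl (adjusted p = 0.095, limma). In CDP against GMP 25 fell and 0 rose, with a median of -0.51, while 12.1% of all genes fell and 15.9% rose. The median over all 18193 genes lay between -0.008 and 0.004 in these comparisons. Comparisons that share a group share its arrays, so the counts are not independent of each other. Because the genes are bright, the same shares were also taken among the 7682 genes that lay above the median on all 15 arrays: 8.49% fell in CDP against CMP, 31.5% in pre-cDC against CDP and 34.8% in pre-cDC against GMP.

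**Figure D1:**
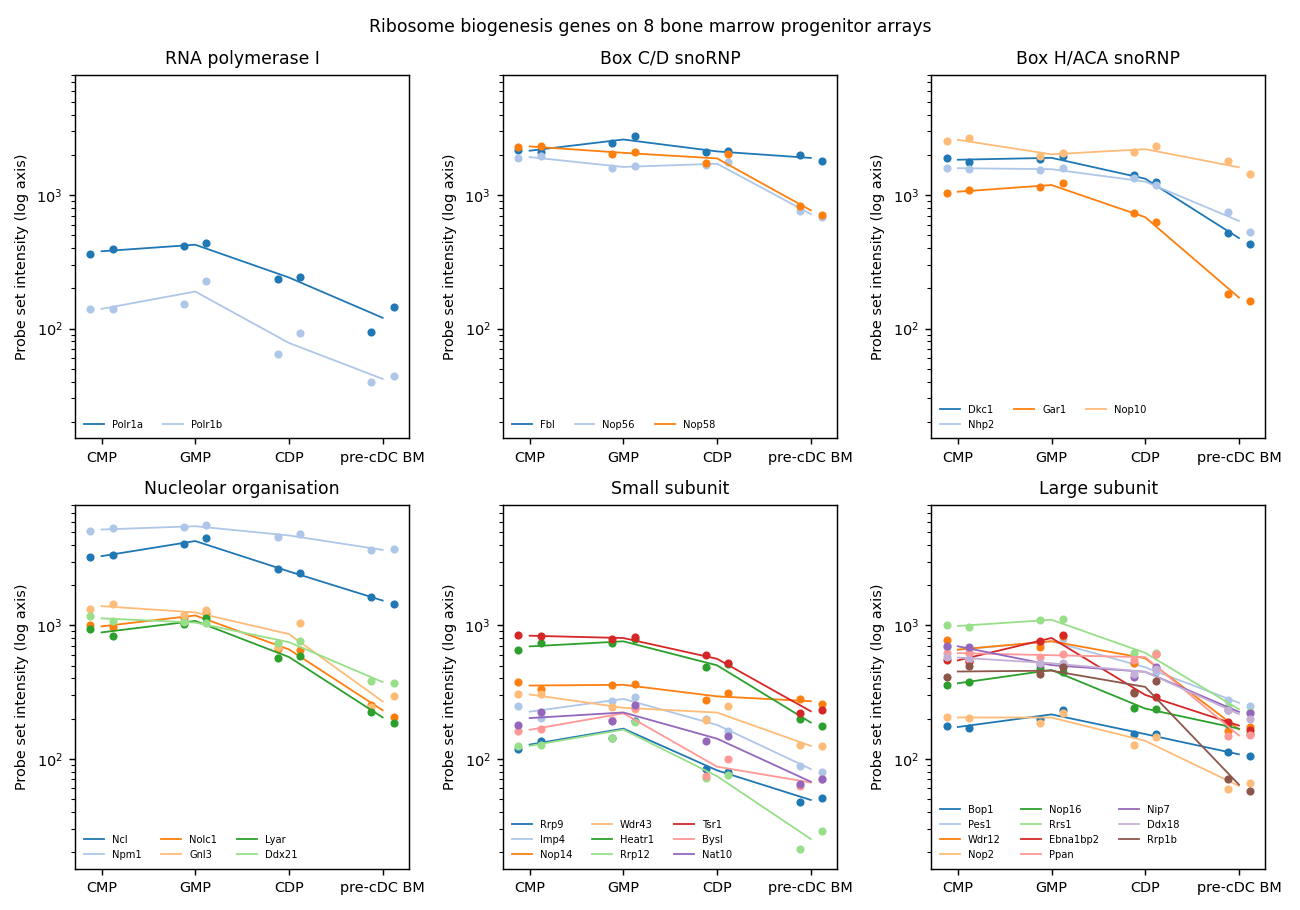
Intensity of each of the 35 ribosome biogenesis genes (vertical axis, log scale) on the 8 bone marrow progenitor arrays, in 6 panels by role. Points are single arrays, 2 per group, and lines join the group means. In 34 of 35 genes both pre-cDC points lie below all 6 other points, and Gar1 drops from 1029.9 and 1088 in CMP to 181 and 160.1 in pre-cDC.

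The arrays themselves show the order. For 34 of the 35 genes both pre-cDC arrays lay below all 6 other progenitor arrays, a pattern shown by 22.7% of all genes and by 34.4% of the genes above the median on all arrays. The exception is Nop14, a small subunit factor, which read 276 and 312 in CDP and 281 and 259 in pre-cDC. For 28 genes the CDP arrays also lay below all CMP and GMP arrays and above both pre-cDC arrays. That pattern was shown by 8.75% of all genes and by 14.0% of the genes above the median on all arrays.

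RNA polymerase I was represented by its 2 large catalytic subunits, and by the probe sets used both fell at each step from CMP to pre-cDC. Polr1a, the largest subunit (chromosome 6, 71909053 to 71979435, GRCm38.p6), read 362 and 396 in CMP, 412 and 437 in GMP, 237 and 245 in CDP, and 94.5 and 146 in pre-cDC. The pre-cDC arrays were the lowest and did not overlap those of another group, although they differed from each other by 0.49 on the log2 scale. The log2 difference of pre-cDC from CDP was -0.86 (SE 0.142, adjusted p = 0.00034, limma). Further probe sets of Polr1a were unlike each other: one that lay above the median on all 15 arrays hardly differed between pre-cDC and CDP (0.00021) or GMP (0.07), and one that lay above the median on 12 arrays differed by -1.13 and -1.44. Polr1b, the second largest subunit, has values of 141 and 140.0 in CMP, 152 and 227 in GMP, 64.0 and 91.8 in CDP, and 39.8 and 44.0 in pre-cDC. Its log2 difference was -0.66 in CDP against CMP (SE 0.158, adjusted p = 0.013, limma) and -0.56 in pre-cDC against CDP (SE 0.158, adjusted p = 0.014, limma).

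The 3 core proteins of the box C/D particle that are on the list did not move alike. Fbl, the methyltransferase (chromosome 7, 28168893 to 28179269), read 2180.1 and 2118 in CMP, 2464 and 2753 in GMP, 2089.8 and 2156 in CDP, and 1984 and 1809.8 in pre-cDC. The CMP and CDP arrays overlapped, and the difference of pre-cDC from CDP was -0.16 (SE 0.080, adjusted p = 0.15, limma), which did not pass. The size depends on the probe set. A further one of Fbl, above the median on all 15 arrays, gave -0.34 there, -0.22 in CDP against CMP and -0.57 in pre-cDC against CMP. Nop56 and Nop58 are the paired scaffold proteins that hold the particle together. Nop58 read 2290.4 and 2341 in CMP, 2034 and 2110.4 in GMP, 1733 and 2029.7 in CDP, and 826 and 709.7 in pre-cDC, a drop that came mostly at the last step: -0.30 from CMP to CDP (adjusted p = 0.056, not called) and -1.26 from CDP to pre-cDC (adjusted p = 4.3e-07, limma). Nop56 read 1883 and 1968 in CMP, 1599.7 and 1648 in GMP, 1669 and 1764 in CDP, and 755 and 685 in pre-cDC. Its CDP arrays lay above its GMP arrays, and only its pre-cDC arrays stood clearly lower, with a log2 difference of -1.22 from CDP (SE 0.083, adjusted p = 1.6e-07, limma).

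All 4 core proteins of the box H/ACA particle fell from CDP to pre-cDC, with log2 differences of -0.45 to -1.82. Gar1, which helps the particle turn over its substrate RNA (chromosome 3, 129824912 to 129831407), read 1029.9 and 1088 in CMP, 1141 and 1237 in GMP, 738 and 627 in CDP, and 181 and 160.1 in pre-cDC. No 2 groups overlapped, and against GMP the pre-cDC value was lower by the widest margin of all 35 genes, a log2 difference of -2.59 (6.03-fold on this scale, SE 0.107, adjusted p = 4.8e-10, limma). Dkc1, the pseudouridine synthase on chromosome X (75095854 to 75109776), had 1909 and 1769 in CMP, 1854 and 1948 in GMP, 1408 and 1245 in CDP, and 521 and 432 in pre-cDC. Nhp2, an RNA-binding core protein, had 1605 and 1576 in CMP, 1543 and 1582 in GMP, 1337 and 1185 in CDP, and 749 and 532 in pre-cDC. CMP and GMP overlapped in both genes, and pre-cDC were lowest in both. Nop10, the smallest protein of the particle, moved least: 2529 and 2657 in CMP, 1978 and 2063 in GMP, 2099 and 2316 in CDP, and 1788 and 1441 in pre-cDC.

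Of the 6 genes of nucleolar organisation, 5 fell from CMP to CDP, and all 6 fell from CDP to pre-cDC. Lyar, a nucleolar growth regulator (chromosome 5, 38220471 to 38234306), read 935 and 836 in CMP, 1018 and 1142 in GMP, 571 and 588 in CDP, and 223 and 185 in pre-cDC. Nolc1, a chaperone of snoRNPs, read 1001 and 965 in CMP, 1127 and 1245 in GMP, 664 and 657 in CDP, and 255 and 207 in pre-cDC. In both genes the GMP arrays were highest and the groups did not overlap, and pre-cDC against GMP differed by -2.24 and -2.22. Gnl3 (nucleostemin), a GTP-binding nucleolar protein, read 1334 and 1451 in CMP, 1201 and 1301 in GMP, 687 and 1034 in CDP, and 245 and 294 in pre-cDC. Its CDP arrays were the most widely spaced of any gene here, yet the difference of pre-cDC from CDP, -1.54 on the log2 scale (SE 0.153, adjusted p = 4.4e-06, limma), was larger than that spacing. By the probe sets used, the abundant nucleolar proteins Npm1 (nucleophosmin) and Ncl (nucleolin) fell by 0.36 and 0.72 from CDP to pre-cDC, and Ddx21, an RNA helicase, fell by 0.94. The size depends on the probe set: those of Ncl that lay above the median on all arrays but were not used differed by -0.45, -1.29 and -1.41, that of Npm1 by -0.59 and that of Ddx21 by -0.57. Npm1 was the gene of the 6 that was not called from CMP to CDP (-0.15, adjusted p = 0.13, limma).

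Among the 9 small subunit factors, Heatr1, Tsr1 and Rrp12 gave the largest differences. Heatr1, a component of the early processome (chromosome 13, 12395375 to 12438893), read 656 and 735 in CMP, 732 and 786 in GMP, 487 and 517 in CDP, and 198 and 176 in pre-cDC. Tsr1, which sits on the late small subunit before it matures, read 840.1 and 833 in CMP, 788 and 819 in GMP, 599 and 524 in CDP, and 221 and 234 in pre-cDC. Rrp12, which helps export the subunits, was dimmer, with 124 and 126 in CMP, 143 and 188 in GMP, 72.0 and 76.2 in CDP, and 21.1 and 29.0 in pre-cDC. In all 3 the groups from CMP or GMP to CDP to pre-cDC were separate, and the log2 differences of pre-cDC from GMP were -1.85, -1.69 and -1.78. Bysl, a late small subunit factor, read 162 and 168 in CMP, 74.1 and 100.5 in CDP (-0.73 from CMP, adjusted p = 0.0021, limma) and 62.6 and 70.3 in pre-cDC (-0.27 from CDP, adjusted p = 0.14, not called). The difference between its steps, 0.46, was not called (SE 0.227, adjusted p = 0.24, limma), and a further probe set of Bysl gave -0.34 and -0.42. Rrp9, Imp4, Wdr43 and Nat10 fell from CDP to pre-cDC, with log2 differences of -0.49 to -0.86, and Nop14 was not called there (-0.11, adjusted p = 0.51).

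All 11 large subunit factors fell from CDP to pre-cDC, with log2 differences of -0.40 (Bop1) to -1.97 (Rrp1b). Rrp1b, a nucleolar factor on chromosome 17 (32036162 to 32062865), read 409 and 493 in CMP, 430.2 and 485 in GMP, 311 and 381 in CDP, and 70.3 and 57.8 in pre-cDC. CMP and GMP overlapped, CDP were somewhat lower (-0.36, adjusted p = 0.099, not called), and the step to pre-cDC was the largest of all 35 genes (3.92-fold on this scale, SE 0.131, adjusted p = 1.3e-07, limma). Rrs1, which brings the 5S ribonucleoprotein into the subunit, read 1004 and 974 in CMP, 1094 and 1108 in GMP, 621 and 623 in CDP, and 246 and 224 in pre-cDC. Ebna1bp2, an early large subunit factor (chromosome 4, 118620799 to 118627776), read 552 and 541 in CMP, 760.0 and 848 in GMP, 314 and 288 in CDP, and 189.8 and 165 in pre-cDC. It had the largest fall from CMP to CDP of the 35, a log2 difference of -0.80 (SE 0.107, adjusted p = 0.00026, limma). The 3 subunits of the PeBoW complex, which is needed for processing of the large subunit RNA, fell by different amounts from CDP to pre-cDC: Wdr12 by 1.59, Pes1 by 0.81 and Bop1 by 0.40. Pes1 read 683 and 627 in CMP, 733 and 786 in GMP, 523 and 448 in CDP, and 277 and 249 in pre-cDC. Its 4 groups did not overlap.

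The steps from CMP to CDP and from CDP to pre-cDC were of unequal size in part of the genes. The difference between the steps was tested in the same limma fit, as an addition made after the values had been seen. In 13 of the 35 genes the second step was more negative, against 6.97% of all genes, and in 0 genes the first step was, against 4.94% of all genes. The median of that difference was -0.38 for the 35 genes and -0.01 for all genes. Ppan, a large subunit factor, showed it most: it read 619 and 620.4 in CMP, 546 and 610.2 in CDP, and 149 and 149.8 in pre-cDC, with steps of -0.10 and -1.75, which differ by -1.65 (SE 0.172). Next were Rrp1b (-1.62), Wdr12 (-1.40), Gar1 (-1.20) and Nop56 (-1.05), then Nop58, Dkc1, Nolc1, Heatr1, Lyar, Rrs1, Tsr1 and Ddx18. The count was 8 without replicate 1 of CDP and 7 without replicate 2 of CDP, so it rests in part on the CDP arrays, which enter both steps.

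**Figure D2:**
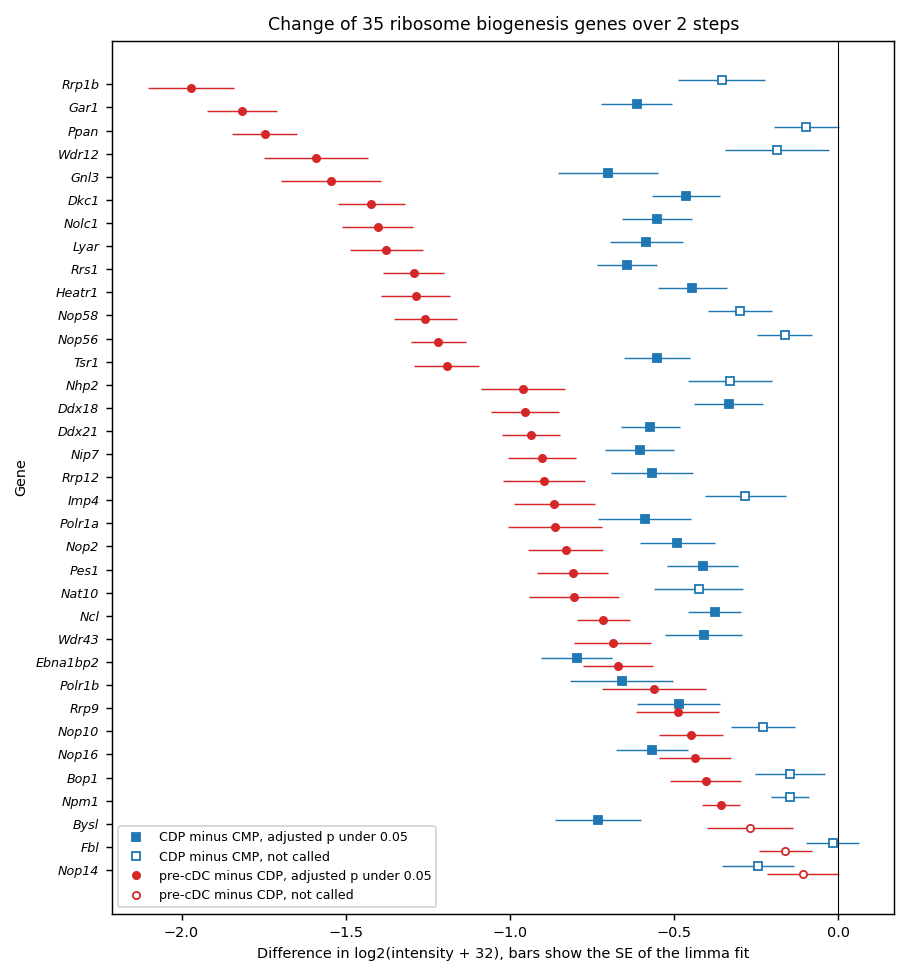
Log2 difference of each of the 35 genes for CDP minus CMP (squares) and pre-cDC minus CDP (circles), with bars for the SE of the limma fit. Filled symbols passed an adjusted p of 0.05 and open symbols did not. Of the squares 22 are filled and of the circles 32, all of these below 0, and Ppan, Rrp1b and Wdr12 have the widest gaps between their symbols.

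CMP and GMP, which share high CD117, differed little in these genes. In GMP against CMP 3 genes rose and 2 fell, while 7.0% of all genes rose and 9.76% fell, so the share of the ribosome biogenesis genes that was called is not above that of genes in general. Ebna1bp2 rose by 0.53 (SE 0.107, adjusted p = 0.0038, limma), Ncl by 0.37 (SE 0.081, adjusted p = 0.006) and Fbl by 0.27 (SE 0.080, adjusted p = 0.033). Nip7, a large subunit factor, fell by 0.44 (702 and 692 in CMP, 511 and 496 in GMP, adjusted p = 0.0096), and Nop10 fell by 0.35 (adjusted p = 0.024). For 17 genes the GMP arrays were above all 6 other progenitor arrays (13.1% of all genes), and for 10 genes the CMP arrays were (8.17%). Between GMP and CMP alone the counts without overlap are the same 17 and 10, since CDP and pre-cDC were mostly lower. The shares of all genes also require values above CDP and pre-cDC, so they do not bear on GMP against CMP alone. These calls are not stable: without single arrays of CMP or GMP the count of rises ranged from 0 (without replicate 2 of GMP) to 6 (without replicate 1 of GMP), with 1 without replicate 1 of CMP, and the count of falls was 0 when any 1 of these 4 arrays was left out. Of 24 further probe sets of 20 of the genes that lay above the median on all arrays, 13 had the same sign as the described one in GMP against CMP, but 22 in CDP against CMP and 23 in pre-cDC against CDP, where the exception was the Polr1a probe set that hardly differed. Some that had the same sign differed far less between CDP and pre-cDC than the described one, with -0.27 in Heatr1, -0.12 in Pes1 and -0.19 in Imp4. In GMP against CMP the further probe sets of Ncl gave -0.25, 0.21 and 0.42.

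The count for CDP against CMP also moved with single arrays. It was 11 without replicate 2 of CMP and 13 without replicate 1 of CDP, while the count for pre-cDC against CDP stayed between 29 and 32 when any of the 8 arrays was left out.

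Other genes of the pathway, taken from lists that were written for their function, were lower in pre-cDC as well, but ribosomal protein genes much less. From CDP to pre-cDC, 32 of 46 other small subunit genes fell and 2 rose, with a median of -0.54, while 18.8% of all genes fell and 14.4% rose. Rcl1 (-1.48), Utp20 (-1.19) and Pno1 (-1.10) fell most, while Riok3 (0.53) and Wdr3 (0.35) rose. Of 44 other large subunit genes measured, 31 fell and 1 rose (Zfp622, 0.29), with a median of -0.56, and Rsl1d1 (-1.31), Rrp15 (-1.31) and Grwd1 (-1.24) fell most. Of 14 genes of the RNA exosome, which trims the precursor RNA, 11 fell, led by Dis3 (-0.97), and 0 rose. Of 8 snoRNP assembly genes measured, 7 fell and 0 rose, with Ruvbl2 (-1.37), Naf1 (-1.22) and Ruvbl1 (-1.05) lowest. Of 13 other RNA polymerase I genes 7 fell and 0 rose, with a median of -0.42, led by Taf1d (-0.96).

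The protein components of the ribosome itself differed from the factors that assemble it. Of 52 ribosomal protein genes listed, 33 had a probe set of their own, and 10 of these fell and 0 rose from CDP to pre-cDC, with a median of -0.11. The count of falls is near the general share, as 31.5% of the genes above the median on all 15 arrays fell (18.8% of all genes). Rpl14 (-1.21) and Rps6 (-1.15) fell most, and Rps2 followed at -0.36. From CMP to CDP 1 of the 33 fell (Rpl14, -0.65) and the median was 0.02, against 21 of 46 and 16 of 44 that fell among the other small and large subunit genes. Of all genes 6.75% fell at that step. The difference between the lists was not tested.

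Of 11 genes of the Myc network, 3 rose and 3 fell from CDP to pre-cDC, and Myc itself fell most. In the same comparison 14.4% of all genes rose and 18.8% fell. Myc read 1475 and 1736 in CMP, 1001 and 1192 in GMP, 683 and 911 in CDP, and 181 and 211 in pre-cDC. The 4 groups did not overlap, and the log2 difference was -0.99 from CMP to CDP (SE 0.141, adjusted p = 0.00039, limma) and -1.85 from CDP to pre-cDC (SE 0.141, adjusted p = 4e-07). Mycl, a relative of Myc, went the other way, with 22.8 and 21.2 in CMP, 5.4 and 5.07 in GMP, 226 and 186 in CDP, and 333 and 336 in pre-cDC. Mxd3, which pairs with Max and opposes Myc at the E-box, read 48.0 and 38.2 in CMP, 33.1 and 33.7 in GMP, 155 and 127 in CDP, and 485 and 455 in pre-cDC, and it rose at each step from CMP (1.20 and 1.54, adjusted p = 1.8e-05 and 3.8e-07, limma). Max read 147 ± 16.4 in CMP and 94.6 ± 0.721 in pre-cDC (SD, n = 2 each), a log2 difference of -0.50 (adjusted p = 0.0032, limma). Mxd1 read 22.1 and 31.5 in CMP and 35 and 41 in pre-cDC, near the added 32, and Mnt, another Max partner, read 378 and 412 in CMP and 469 and 538 in pre-cDC. Mxd4 and Mxi1 were lower in pre-cDC than in CMP instead. Mxd4 read 293 and 352 in CMP and 215 and 218 in pre-cDC, and Mxi1 read 288 and 265 in CMP and 199 and 180 in pre-cDC.

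**Figure D3:**
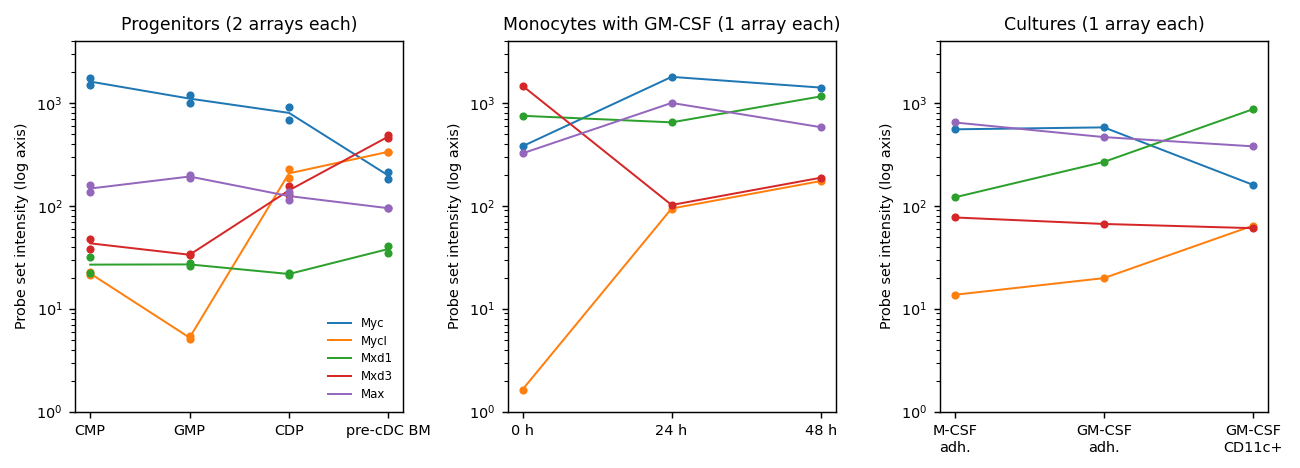
Intensity (log axis) of Myc, Mycl, Mxd1, Mxd3 and Max in progenitors (points are the 2 arrays of a group, lines join means), monocytes and cultures (1 array each). The 3 panels stand on different scales and are not to be compared in level. Myc is lowest in pre-cDC among the progenitors, and it reads 378 at 0 h and 1783 at 24 h in monocytes.

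Genes of the cell cycle, measured because dividing cells make more ribosomes, did not follow the ribosome biogenesis genes through the progenitors. From CMP to CDP 8 of 21 measured cell cycle genes rose and 0 fell (7.68% and 6.75% of all genes). The 35 ribosome biogenesis genes had 22 falls. From CDP to pre-cDC 9 of the cell cycle genes rose and 9 fell (14.4% and 18.8% of all genes). Those that rose include Cdc20 (0.71), Birc5 (0.59) and Mki67 (0.55), known from mitosis and proliferating cells, and those that fell include Mcm3 (-1.37), Mcm4 (-1.33) and Rrm1 (-1.0), which serve DNA replication. Mki67 read 2636 and 2739 in CDP and 3913 and 4009 in pre-cDC, with no overlap.

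Markers of other cells also moved between these groups, and their part in the results was not tested. The summed intensity of 10 erythroid genes was 4560 to 6442 in CMP, 2803 to 5167 in GMP, 176 to 236 in CDP and 85.35 to 102 in pre-cDC, with 7, 7, 1 and 1 of the genes above the array median on both arrays. The sum of 7 neutrophil genes was 195 to 232 in CMP, 2834 to 3394 in GMP, 267 to 367 in CDP and 137 to 192 in pre-cDC. The sums of 8 mast cell and basophil genes (329 to 337, 961 to 1164, 118 to 152 and 43.7 to 66.6), of 6 T and NK cell genes (377 to 456, 1822 to 1882, 154 to 178 and 35.4 to 50.2) and of 5 megakaryocyte genes (106 to 135, 125 to 139, 70.01 to 84.7 and 48.3 to 63.2) had their lowest values in pre-cDC too, in the same order of groups. Those of 6 B cell genes and 7 stroma genes did not, with 302 to 323 and 79.1 to 85.8 in pre-cDC and 304 to 366 and 67.7 to 69.9 in CDP. In CMP, GMP, CDP and pre-cDC, 3, 6, 3 and 0 of the mast cell and basophil genes lay above the array median on both arrays. The counts were 1, 1, 1 and 0 for the T and NK cell genes and 3, 3, 2 and 0 for the megakaryocyte genes. From CDP to pre-cDC, 3 of the 7 neutrophil, 2 of the 8 mast cell and basophil, 1 of the 10 erythroid, 1 of the 6 T and NK cell and 1 of the 5 megakaryocyte genes fell and 0 of these rose. In the same comparison 1 of the 6 B cell genes fell and 1 rose, and 1 of the 7 stroma genes fell and 2 rose.

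In monocytes given GM-CSF, all 35 ribosome biogenesis genes read higher on the 24 h array than on the 0 h array, by a median of 0.92 on the log2 scale (33 of the 35 when the probe sets of a gene were averaged). Of them 12 were at least 2-fold higher and 0 at least 2-fold lower, while 6.22% of all genes were at least 2-fold higher and 7.29% lower. Of all genes 50.1% read higher by any amount. With 1 array per time there is no test, so these are differences between these arrays. By 48 h the values had come part of the way back: 32 of 35 were lower than at 24 h, with a median difference of -0.38 (46.2% of all genes were lower), and 30 were still above 0 h (50.2% of all genes were). Relative to 24 h, 0 of the 35 were 2-fold lower or higher (0.89% and 2.75% of all genes), and relative to 0 h 4 were 2-fold higher and 0 lower (7.4% and 6.19% of all genes). The comparisons of the 3 times share arrays.

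Rrp9, a protein of the U3 snoRNP that starts small subunit processing (chromosome 9, 106477309 to 106485415), read 335 at 0 h, 2077 at 24 h and 1313 at 48 h, log2 differences from 0 h of 2.52 and 1.88. Nop16, a large subunit factor, read 809.6, 3240.0 and 2489 at the same times (1.96 and 1.58). These were the 2 largest differences of the set. Gar1 read 2178, 6744 and 4126, Tsr1 2065, 5948 and 4132, and Nat10, the acetyltransferase of 18S ribosomal RNA, 524, 1421 and 922, with differences at 24 h of 1.62, 1.51 and 1.39. All 5 were highest at 24 h, with 48 h between the other times. Pes1 and Wdr12, of the PeBoW complex, were instead highest at 48 h, with 2178, 4483 and 5237 in Pes1 and 1032, 2684 and 2876 in Wdr12, and Heatr1 (4029, 6169 and 6458) was the other gene with its highest value at 48 h, as had 32.2% of all genes. Bop1, the third PeBoW subunit, did not share this: it read 1408, 2502 and 1844. By the probe sets used, Nop10 (7423, 8392 and 7046), Npm1 (10053, 11467 and 11122) and Rrp1b (1149, 1179 and 949) hardly differed at 24 h, by 0.18, 0.19 and 0.04. A further probe set of Npm1, above the median on all 15 arrays, gave 0.70 at 24 h and 0.78 at 48 h against 0 h. Other probe sets of Heatr1 and Rrp1b had the opposite sign at 24 h, and those of Pes1 and Wdr12 between 24 and 48 h.

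**Figure D4:**
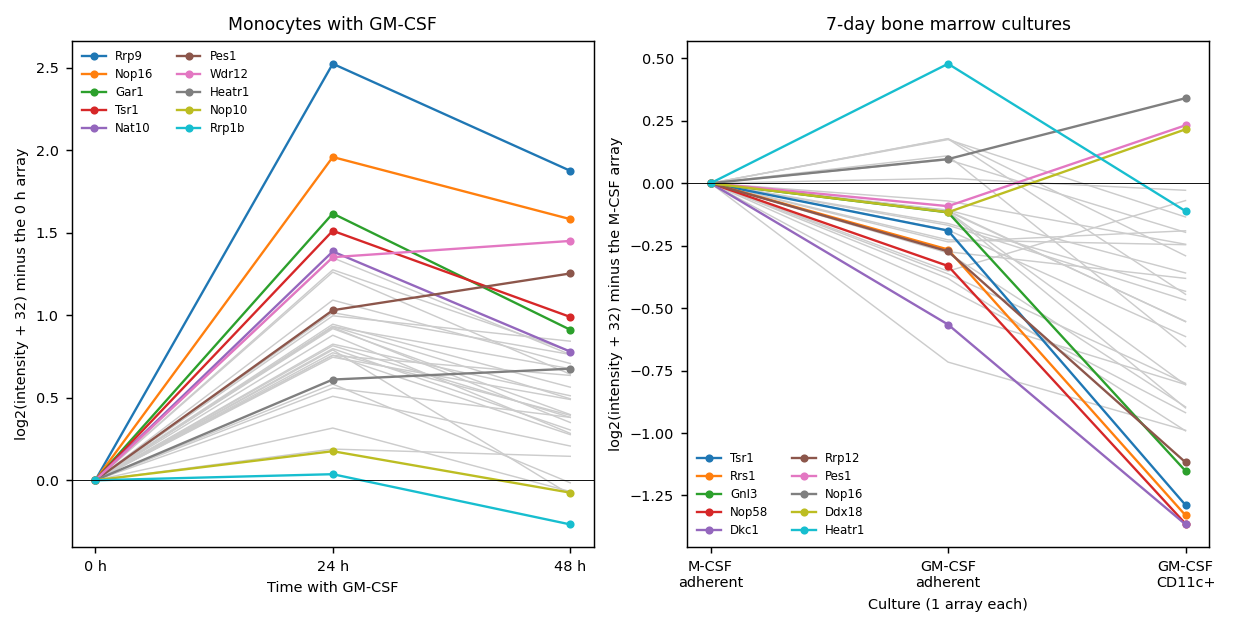
Log2(intensity + 32) of the 35 genes relative to the 0 h array in monocytes (left) and relative to the M-CSF adherent array in cultures (right), 1 array per position and no error bars; 10 genes are coloured in each panel and the rest are grey. All lines lie above 0 at 24 h, highest for Rrp9 at 2.52, and 32 of 35 lie below 0 in the GM-CSF CD11c+ cells.

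The subunit assembly lists were higher at 24 h as well, and the ribosomal proteins and the other RNA polymerase I genes were not. At 24 h against 0 h, 9 of 46 other small subunit genes were at least 2-fold higher and 0 lower (Pno1 1.75, Rcl1 1.65, Dhx37 1.41), and 9 of 44 other large subunit genes (Rsl1d1 2.38, Ddx56 2.13, Grwd1 1.80), with list medians of 0.49 and 0.46. Of 8 snoRNP assembly genes 3 were (Znhit6 1.33, Ruvbl1 1.09, Znhit3 1.04), and of 14 exosome genes 1 (Mphosph6, 1.18). Of the 33 ribosomal protein genes 1 was (Rps25, 1.38), with a median of -0.01, and of 13 other RNA polymerase I genes 0 were, with a median of 0.05. Of all genes 6.22% were at least 2-fold higher. The ribosomal protein genes are very bright: the 33 sum to 483783 at 0 h and 480846 at 24 h. The 44 other large subunit genes sum to 90204 and 113381. Whether differences are compressed at such high intensities was not tested. Myc read 378 at 0 h, 1783 at 24 h and 1403 at 48 h, and Max 322, 996 and 579. Mxd3 read 1460.1, 102 and 187, so it was high where Myc was low.

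Cell cycle genes moved the opposite way in these cells. All 21 read lower at 24 h than at 0 h, 14 of them at least 2-fold, with a median difference of -1.19. Of all genes 7.29% were at least 2-fold lower. Mki67 read 12662 at 0 h, 3746 at 24 h and 4294 at 48 h. The 0 h array also held signal of granule enzymes that are known from earlier myeloid cells: Mpo read 4935, 170.2 and 277 and Elane 1791, 289.8 and 56.9 at the 3 times, and the sum of 7 neutrophil genes read 18343, 8079 and 6759.6. The sum of 6 B cell genes read 1155, 389 and 317, and that of 5 megakaryocyte genes, with 1, 3 and 3 of them above the array median, 231, 13653 and 11047. The erythroid sum read 2669, 2648 and 6085, that of mast cells and basophils 424, 857 and 824, and that of T and NK cells 551, 313 and 353. The monocyte marker gene Csf1r read 17455, 18097 and 17279, and Adgre1 read 7100, 7386 and 7471. Other genes known from monocytes and dendritic cells moved more. Ccr2 read 10007, 8945 and 6610, Itgam 739, 1669 and 1528, and Irf8 10171, 1162 and 1791. Itgax read 59.3, 12043 and 12541, H2-Ab1 1159, 17352 and 17127, and Ccl17 48.7, 16201 and 16325. The part of these other markers in the differences over time was not tested.

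**Figure D5:**
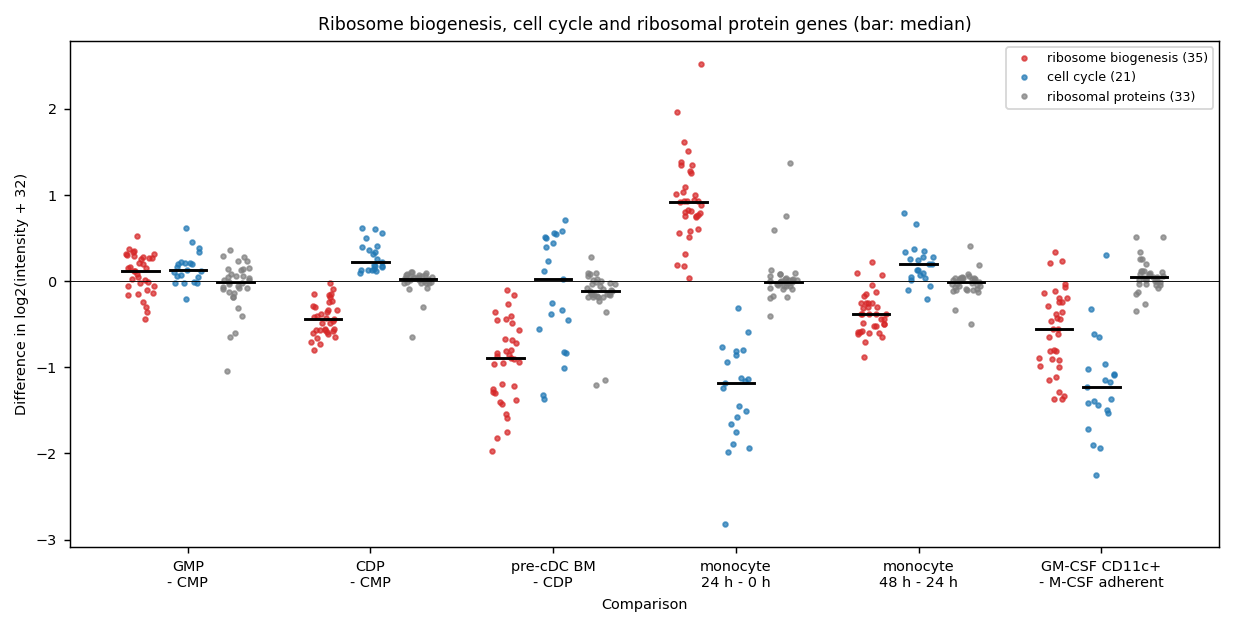
Log2 differences of the single genes (points) of 3 lists in 6 comparisons, with the list medians as bars: 35 ribosome biogenesis genes, 21 cell cycle genes and 33 ribosomal protein genes. The median of the ribosome biogenesis genes is -0.90 in pre-cDC minus CDP and 0.92 in monocytes at 24 h minus 0 h, where that of the cell cycle genes is -1.19 and that of the ribosomal proteins -0.01.

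In the cultures, adherent cells grown with M-CSF tended to have the highest values and non-adherent CD11c+ cells of GM-CSF cultures the lowest. The order M-CSF adherent, GM-CSF adherent, CD11c+ from high to low held for 23 of the 35 genes and for 22.9% of all genes, and 30 of the 35 were lowest in CD11c+ cells, against 34.9% of all genes. Among the genes above the median on all 15 arrays these shares were 28.3% and 40.5%. The sizes were modest. CD11c+ cells against M-CSF adherent cells had 6 genes at least 2-fold lower and 0 higher (4.29% and 5.32% of all genes), with a median of -0.55, and 32 were lower by any amount (48.6% of all genes). CD11c+ cells against GM-CSF adherent cells had 4 lower and 0 higher (1.28% and 2.45% of all genes), with a median of -0.44. The adherent cells of both cultures had 0 genes 2-fold apart in either direction (2.12% of all genes were lower and 3.37% higher with GM-CSF), with a median of -0.16. Each culture is 1 array, the 3 comparisons share arrays, and no test was possible.

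Dkc1 read 271 in M-CSF adherent, 173 in GM-CSF adherent and 85.6 in CD11c+ cells, a log2 difference of -1.37 between the first and the last. Nop58 read 526, 411 and 185 in the same order (-1.36), Rrs1 894, 739 and 337 (-1.33), Tsr1 781, 680.5 and 301 (-1.29), Gnl3 706, 648 and 300.0 (-1.15) and Rrp12 111, 86.2 and 33.8 (-1.12). The GM-CSF adherent value lay between the others in each of these 6 genes, nearer to M-CSF on the log2 scale. Pes1 (657, 615 and 778), Nop16 (588, 631 and 753) and Ddx18 (425, 389 and 498), an RNA helicase of the large subunit, were the 3 genes highest in CD11c+ cells (38.1% of all genes were). In 7 genes, Polr1a, Nhp2, Nop10, Heatr1, Bysl, Nat10 and Rrp1b, the GM-CSF adherent array was highest (25.0% of all genes), and Heatr1 stood out there with 843 against 596 and 549.

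Myc read 552 in M-CSF adherent, 576 in GM-CSF adherent and 159 in CD11c+ cells. In the same order Mxd1 read 121, 266 and 866, and Mxi1 read 816, 1878 and 2902. Mnt (1141, 929 and 1048), Mxd4 (939, 559 and 841) and Mxd3 (76.9, 66.5 and 60.5) read lower in CD11c+ than in M-CSF adherent cells. Of the 21 cell cycle genes 16 were at least 2-fold lower in CD11c+ than in M-CSF adherent cells (4.29% of all genes), with a median of -1.23. So here the cell cycle genes and the ribosome biogenesis genes were low on the same array. Sums of other markers differed too, and their part in the result was not tested. In M-CSF adherent, GM-CSF adherent and CD11c+ cells, in this order, the megakaryocyte sum read 7635, 3169 and 2523, the order from high to low that 23 of the ribosome biogenesis genes have. The B cell sum, at 143, 87.1 and 58.2, had that order as well, but only 2, 2 and 0 of its 6 genes lay above the array median. The neutrophil sum read 10007, 26816 and 7457, the mast cell and basophil sum 329, 1171 and 247, and the erythroid sum 357, 403 and 1754. The T and NK cell sum read 55.02, 88.5 and 83.9, with 0, 2 and 1 of 6 genes above the array median. The stroma sum read 137, 115 and 132, with 2 of 7 genes above it on each array.

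The pre-cDC array titled Spl was set beside the bone marrow pre-cDC only as values, since its scale differs and its characteristics name bone marrow progenitors. The ratio of its intensity to the mean of the 2 bone marrow pre-cDC arrays had a median of 2.01 over the 35 genes, with 33 ratios above 1. Over all 18193 genes the median was 3.04, with 16547 ratios above 1, so most genes read higher on this array. Among genes above 100 in bone marrow pre-cDC, the median ratio was 1.92 over 27 ribosome biogenesis genes, with 25 ratios above 1. Over all 5935 such genes it was 1.57, with 4588 ratios above 1. The lowest ratio was that of Dkc1 (421 against a mean of 476) and the highest that of Nop2, a large subunit methyltransferase (415 against 62.6).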

How the data were processed

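RNA of 15 samples was labelled with a 3' IVT kit and hybridised to 1-colour Affymetrix arrays. The authors deposited 1 intensity per probe set and array, on a linear scale; background correction, summarising and scaling are not given in the sources used here. Of 45037 probe sets, 34945 carried 1 gene symbol, 932 several and 9160 none, and only the first were used. Of the 329 symbols in the lists, 293 were measured, and of the 18193 genes 18145 were found in the reference annotation. Every column was matched to a sample by its identifier.

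Values of the 8 progenitor arrays, as log2(intensity + 32), entered a single model in limma 3.58.1 (R 4.3.3) with a mean for each of the 4 groups: lmFit, then contrasts.fit, then eBayes with an intensity trend. It left 4 residual degrees of freedom (12.6 once moderated), and all tests are two-sided. Tables and figures were made in Python 3.11.15 with pandas 2.3.3 and matplotlib 3.10.9. The titles number the progenitor arrays WT1 and WT2 in each group, and these numbers were not taken to pair the arrays. Over 6 pairs of groups, deviations of like-numbered arrays correlated at -0.007 for CMP with GMP. For the other pairs the correlation was positive, from 0.124 (CMP with CDP) to 0.281 (CDP with pre-cDC). These values do not settle whether like-numbered arrays belong together, and a fit with the number as a block is among the alternatives. The number of arrays limits the precision.

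The members and the lists were chosen with earlier results of these data known. Genes were given with the array values of a comparison by rule: up to 3 per role class with the largest called difference, those called against the main direction of a comparison, and up to 5 in each direction of a single-array comparison; up to 3 genes in each direction from each other list; and always the Myc family, Max, Mnt, the Mxd genes, Mki67, Top2a and Pcna, of which those bearing on a result are printed. Nop14, Bysl, Npm1, Ppan, Bop1, Ddx18, Ddx21, Wdr43, Imp4 and Nop2 were named after their values were seen. Lists of megakaryocyte, mast cell, B cell, T and NK cell and stroma markers were measured too.

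Alternatives were a smaller and a larger added constant, quantile normalization, a filter on dim genes, averaged probe sets, the replicate number as a block, fits of the 2 groups alone, each array left out, and other folds (1.5 and 4).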

Additional observations from a re-analysis of the deposited data

How the results depend on the processing

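No called difference of a ribosome biogenesis gene changed sign under any alternative, but differences that were not called did: over all genes and alternatives there were 19 such sign changes in GMP against CMP, 5 in GM-CSF against M-CSF adherent cells, 4 in each of CDP against GMP and monocytes at 48 h against 0 h, 3 in CDP against CMP, 2 in monocytes at 24 h against 0 h, 2 at 48 h against 24 h and 1 in CD11c+ against M-CSF adherent cells. Counts of genes that were higher by any amount ranged from 20 to 24 in GMP against CMP, from 0 to 2 in CDP against CMP and from 2 to 4 in CDP against GMP. With probe sets averaged, 33 genes were higher at 24 h and 32 at 48 h than at 0 h, and 29 were lowest in CD11c+ cells. The count of genes in the order M-CSF adherent, GM-CSF adherent, CD11c+ was 23 with probe sets averaged and with quantile normalization. These sign and order counts were added after the data had been seen. In the progenitors, the counts of CDP and pre-cDC comparisons stayed within 1.5 times of the reported ones under every alternative that kept all arrays, and no gene rose in any of them. The count of rises in GMP against CMP went from 3 to 6 with quantile normalization, and the count of falls from 2 to 5 with probe sets averaged; the cause was not tested. Leaving out each array in turn gave 0 to 6 rises and 0 to 3 falls in GMP against CMP, and falls of 11 to 24 in CDP against CMP, 18 to 26 in CDP against GMP, 29 to 32 in pre-cDC against CDP, 33 to 35 in pre-cDC against GMP, 33 to 34 in pre-cDC against CMP, with 7 to 13 genes whose second step was more negative. A fit that leaves a group with 1 array assumes that it varies like the other groups. With the replicate number as a block, the falls were 23 in CDP against CMP, 25 in CDP against GMP and 32 in pre-cDC against CDP, the rises in GMP against CMP 4, and 15 genes had the more negative second step; the block changed no other count of the 35 genes.

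The single-array counts follow the fold by construction. At 1.5-fold, 28 genes were higher at 24 h (12% of all genes), 16 at 48 h against 0 h (13.4%), and 8 lower at 48 h against 24 h (3.47%). In cultures 16 were lower in CD11c+ against M-CSF cells (10.3% of all genes), 13 against GM-CSF adherent cells (5.27%), and 1 in GM-CSF against M-CSF adherent cells (5.86%). At 4-fold, 1 gene was higher at 24 h (1.9% of all genes), 0 at 48 h against 0 h (2.97%), and 0 were lower in CD11c+ against M-CSF (0.764%) or GM-CSF adherent cells (0.165%). With a larger constant added the CD11c+ counts were 3 (against M-CSF) and 0 (against GM-CSF adherent). With probe sets averaged, 7 genes were higher and 1 lower at 48 h against 0 h. Culture and monocyte results rest on 1 array each, and the progenitor results on 2 arrays a group.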
